A study of Gossypium hirsutum with 6 samples.

Results

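The 4 named transcripts of cotton fibre, H6L, Ghfe1, E6 and Fb2, were followed in leaves of upland cotton (Gossypium hirsutum), where they were read on 6 Affymetrix cotton arrays. The members were taken by name: every probe set that the platform's gene table pairs with exactly 1 gene, where the synonyms of that gene in RefSeq include E6, H6L, Ghfe1 or Fb2. This gave 4 genes of the 520 that can be named in this way, each with 1 probe set: Ghi.783.1.S1_s_at for H6L (LOC107908860), Ghi.1644.1.S1_s_at for Ghfe1 (LOC107919941), Ghi.5.1.S1_s_at for E6 (LOC107913945) and Ghi.1591.1.S1_s_at for Fb2 (LOC107894032). The 3 drought arrays came from leaves of cultivar Bikaneri Nerma, field-grown in plots from which irrigation was withheld from peak flowering. They were sampled 18 to 19 days later, at a soil moisture of 19.5%, which was 50% of that in the control plots. The 3 control arrays came from leaves of the same cultivar in adjacent control plots. Each arm had 6 plots, the plants carried no transgene or mutation that the labels name, and a rain-out shelter covered the drought plots when it rained. The arrays are labelled as biological replicates and are not tied to plots, so the spread that the p-values rest on is that between the arrays of an arm.

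Cotton fibres are single cells of the seed coat epidermis that elongate strongly and then lay down a thick cellulose wall. Their transcripts include many for cell wall proteins, and some of these are also found in other tissues. E6 was among the first fibre transcripts to be cloned and is very abundant in elongating fibre, while what its protein does is not settled. H6L is named after H6, a proline-rich protein of the fibre cell wall. Fb2 belongs to a group of transcripts named as fibre proteins.

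The deposited values are log2 signals from RMA that were centred so that each probe set has a median of 0 over the 6 arrays. They show how an array stands against the other arrays for the same transcript, and they hold no level. They cannot tell whether any of these fibre transcripts is abundant or scarce in leaf, and 1 transcript cannot be ranked above another by its value. For the same reason the tissue label could not be checked against marker levels. Of the leaf markers listed for this work, Rubisco activase (RCA1) and phosphoenolpyruvate carboxylase (PEPC1) could be named; both were higher in drought, by 0.60 each (limma adjusted p = 8.33e-05 and 0.000133). After centring on the hybridisation spike-ins, described with Fb2, these differences were 0.36 and 0.35. They passed there (limma adjusted p = 0.022 and 0.0236), but the p-values of that scaling are descriptive only.

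In drought leaves the signals of H6L, Ghfe1 and E6 were many-fold lower than in control leaves, and that of Fb2 was slightly higher. H6L fell 27.0-fold, Ghfe1 14.7-fold and E6 8.39-fold, while Fb2 rose 1.38-fold. All 4 passed an adjusted p of 0.05 in limma, fitted and adjusted over the whole table of 24029 tested probe sets, but Fb2 no longer passed with arrays centred on their hybridisation spike-ins (0.22 log2 units, limma adjusted p = 0.179). At that threshold 55.7% of all tested probe sets were called. In all, 20.4% of probe sets were lower in drought and 35.3% were higher, 6.63% by at least 1 log2 unit. With the spike-in centring these shares were 30.2% lower and 16.6% higher, so the balance of directions in the background depends on the scaling. The median difference over the 4 genes was -3.47 log2 units, beside 0.12 over all tested probe sets. In these whole-leaf samples, fewer cells that make a transcript and less RNA of it per cell cannot be told apart.

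H6L had values of -2.23, -2.38 and -2.60 log2 units on drought arrays 1, 2 and 3, against 2.23, 2.40 and 2.42 on control arrays 1, 2 and 3. All 3 drought arrays lay far below all 3 control arrays, with 4.46 log2 units between the nearest arrays of the groups. The means were -2.40 ± 0.19 in drought leaves and 2.35 ± 0.11 in control leaves (SD, n = 3 each). The difference was -4.75 log2 units (SE 0.11, 95% confidence interval -5.00 to -4.51, limma adjusted p = 4.54e-09), or a 22.7-fold to 32.04-fold lower signal. Of the 24029 tested probe sets 144 (0.599%) had a larger decrease, and among the 246 genes with an older name H6L stood 6th from the largest decrease.

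Ghfe1 had values of -1.79, -2.23 and -2.11 log2 units on drought arrays 1, 2 and 3, against 1.79, 1.82 and 1.89 on control arrays 1, 2 and 3. The groups were again wide apart, with a gap of 3.59 log2 units, and the drought arrays were more spread than the control arrays (SD 0.22 in drought and 0.05 in control leaves, n = 3 each). The difference was -3.88 log2 units (SE 0.11, 95% confidence interval -4.14 to -3.62, limma adjusted p = 1.61e-08). Larger decreases were seen for 298 tested probe sets (1.24%), and Ghfe1 stood 19th among the named genes.

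E6 had values of -1.41, -1.65 and -1.62 log2 units on drought arrays 1, 2 and 3, against 1.503, 1.62 and 1.41 on control arrays 1, 2 and 3. The gap between the groups was 2.82 log2 units, and the means were -1.56 ± 0.13 in drought leaves and 1.51 ± 0.10 in control leaves (SD, n = 3 each). The difference was -3.07 log2 units (SE 0.09, 95% confidence interval -3.28 to -2.86, limma adjusted p = 2.03e-08), a 7.25-fold to 9.72-fold lower signal. Larger decreases were seen for 535 tested probe sets (2.23%), and E6 stood 24th among the named genes.

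Fb2 had values of 0.34, 0.12 and 0.21 log2 units on drought arrays 1, 2 and 3, against -0.12, -0.33 and -0.28 on control arrays 1, 2 and 3. Its drought arrays lay above its control arrays, but by a gap of 0.24 log2 units, close to the whole range within each group (0.21 in drought and 0.21 in control leaves, with an SD of 0.11 in both, n = 3 each). The difference was 0.47 log2 units (SE 0.09, 95% confidence interval 0.26 to 0.67, limma adjusted p = 0.00202). Higher values than this were seen for 4970 tested probe sets (20.7%). The median over the 27 probe sets for hybridisation spike-ins, whose targets are added in fixed amounts, was itself higher in drought by 0.247 log2 units, at 0.19, 0.25 and 0.01 on drought arrays 1, 2 and 3, against -0.14, -0.01 and -0.13 on control arrays 1, 2 and 3. It was these medians that were taken off in the spike-in centring, where the SE of the Fb2 difference was 0.14. Their error is then shared by every probe set, while limma treats it as separate for each. The SEs there were nearly alike (0.13 for H6L, 0.14 for Ghfe1 and 0.13 for E6). Adjusted p-values and calls with this centring, for single genes, lists and all probe sets, are therefore descriptive only.

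**Figure D1:**
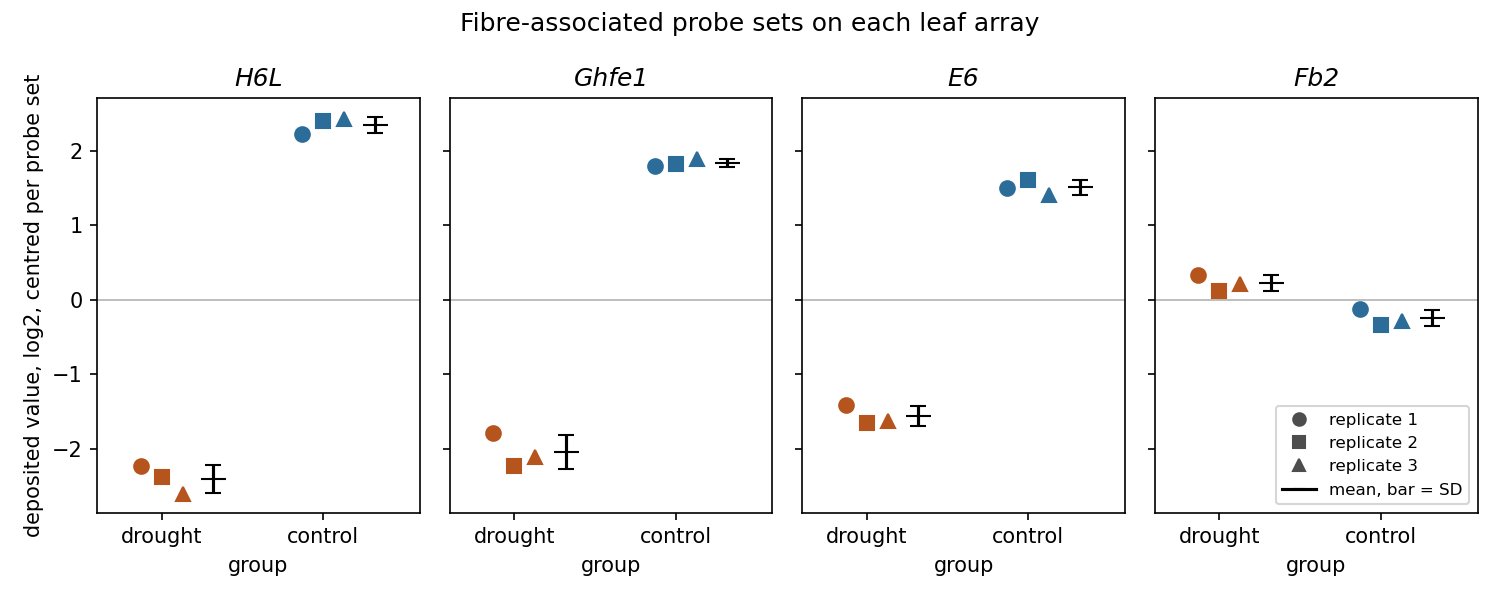
Deposited log2 values, centred per probe set, of H6L, Ghfe1, E6 and Fb2 on the 3 drought arrays (left in each panel) and the 3 control arrays (right); symbols are replicates, and the black mark and bar are the group mean and SD. For H6L, Ghfe1 and E6 the drought arrays lie at -1.41 or below and the control arrays at 1.41 or above, while for Fb2 all 6 arrays lie within 0.34 of 0.

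The centring sets some of these figures. With 6 arrays and a median of 0, the middle pair of values of a probe set are mirror images, which is why 2.23 and -2.23 both appear for H6L and 1.41 and -1.41 for E6. Groups that do not overlap were common in the table: in 22.7% of tested probe sets all drought arrays lay below all control arrays, and in 40.1% all lay above. It was the size that set H6L, Ghfe1 and E6 apart from most of the table, since 8.63% of tested probe sets were called with a decrease of at least 1 log2 unit and 2.34% with a decrease of at least 3.

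**Figure D2:**
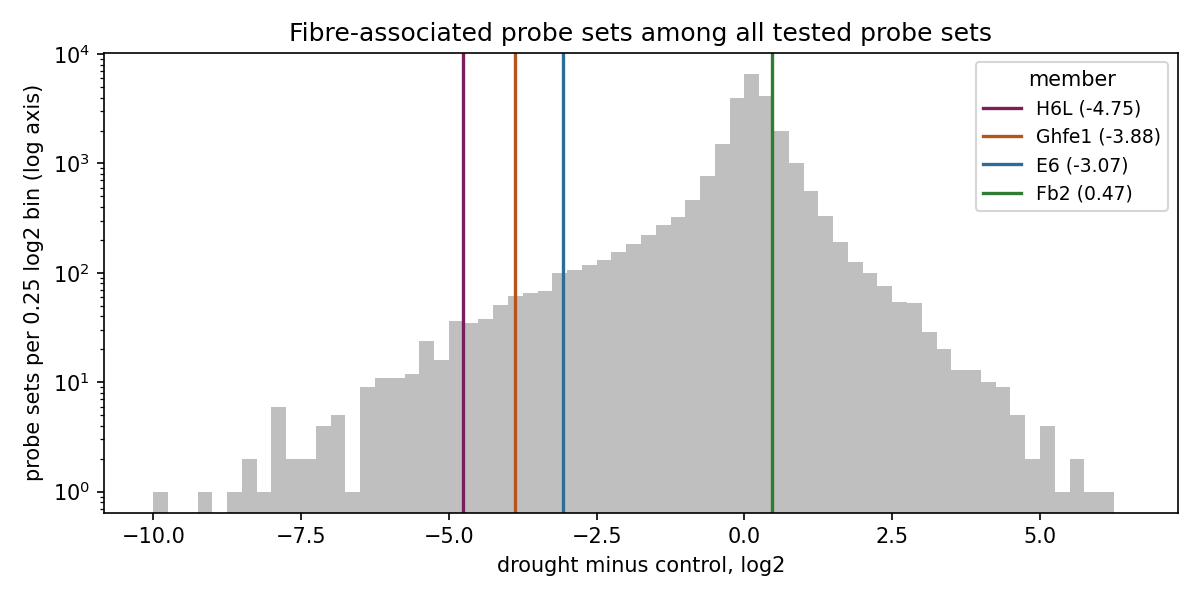
Number of tested probe sets (vertical axis, log scale) by drought minus control difference in log2 units (horizontal axis, bins of 0.25), with lines at H6L, Ghfe1, E6 and Fb2. H6L (-4.75), Ghfe1 (-3.88) and E6 (-3.07) stand in the long lower tail, and Fb2 (0.47) stands beside the central peak.

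The responses also differed in size among the 4 genes. Within each array, H6L minus E6 gave -0.82, -0.73 and -0.98 on drought arrays 1, 2 and 3, against 0.73, 0.78 and 1.02 on control arrays 1, 2 and 3, so the H6L response was 1.69 log2 units more negative than that of E6. The difference of responses was -0.88 for H6L against Ghfe1 and -0.81 for Ghfe1 against E6. Against Fb2, the differences of responses were -5.22 for H6L, -4.35 for Ghfe1 and -3.54 for E6. In all 6 pairs the within-array differences of the groups did not overlap, and each gave an exact two-sided permutation p = 0.1 (0.1 after Benjamini-Hochberg adjustment over the 6 pairs). This is the smallest p that 3 against 3 arrays can give, so no pair could reach 0.05. The order of the decreases, H6L, then Ghfe1, then E6, was the same when any 1 array was left out. It is an order of signals on these probe sets.

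Within the groups the arrays did not follow 1 common order. Drought array 1 was the least negative of the drought arrays for H6L, Ghfe1 and E6, and it was the highest of them for Fb2. Its median over all tested probe sets was 0.08, beside 0.03 and 0.05 on drought arrays 2 and 3. The lowest drought array was array 3 for H6L and array 2 for Ghfe1 and E6. These within-group spreads, with an SD from 0.05 to 0.22 over all 4 genes and both groups, are small beside the differences of H6L, Ghfe1 and E6.

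All 4 probe sets carry the suffix that Affymetrix gives to sets whose probes match more than 1 transcript. Upland cotton is an allotetraploid whose genes mostly come as near-identical pairs, so these values may sum over copies. For E6 the RefSeq gene table lists 2 genes of that name, and the other one (LOC107905808, also known as Fb35) is paired with no probe set of its own here. The array holds another probe set with the cluster number of E6, Ghi.5.2.S1_x_at, which the platform table leaves without a gene. Its values were -0.03, -0.13 and -0.06 on drought arrays 1, 2 and 3, against 0.07, 0.03 and 0.10 on control arrays 1, 2 and 3. The arrays of the groups did not overlap there either, but the difference was -0.14 log2 units (SE 0.07, limma adjusted p = 0.108) and did not pass. It passed as lower with array median centring (-0.24), quantile normalization (-0.27) and spike-in centring (-0.39). The responses of the 2 probe sets of the cluster differed by -2.93 log2 units (exact two-sided permutation p = 0.1, the smallest possible). A shared cluster number does not make Ghi.5.2.S1_x_at a second reading of E6, since probe sets of EXPA1 and susC share a number too. Centred values also cannot show whether Ghi.5.2.S1_x_at lies near background. No second probe set of the same cluster exists in the table for H6L, Ghfe1 or Fb2.

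**Figure D3:**
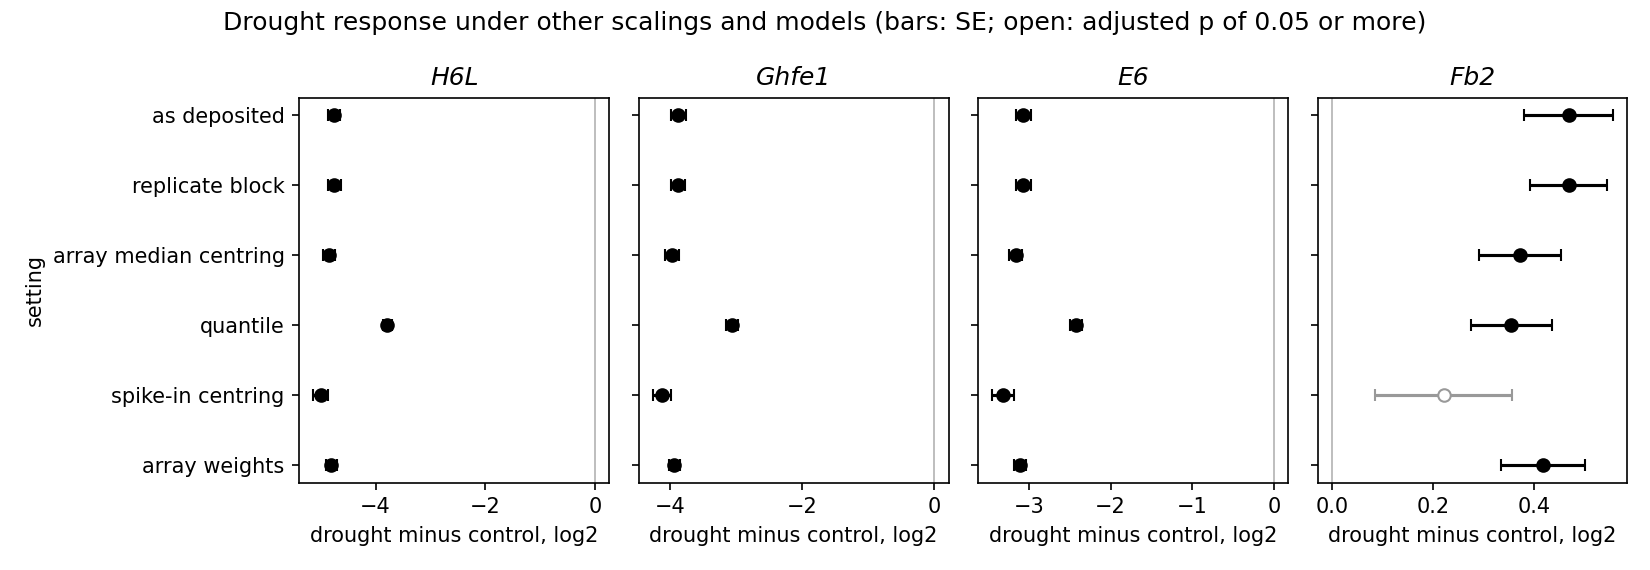
Drought minus control difference in log2 units (horizontal axes, with a range of its own in each panel) of H6L, Ghfe1, E6 and Fb2 under 6 settings of scaling and model; bars are SE, and open symbols have an adjusted p of 0.05 or more. H6L, Ghfe1 and E6 pass under each setting drawn and are smallest after quantile normalization (-3.79, -3.06 and -2.42). That normalization was run on values already centred per probe set. Fb2 (0.22) is open with spike-in centring.

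Other genes known from fibre biology were read from lists of names. The lists were chosen with earlier results of these data known, so they describe and do not test. All of them are drawn from the 246 genes with an older name. On 1 probe set per gene, 42.3% of these named genes were lower, with a median of -0.11. Of 26 cell wall genes, which cover arabinogalactan proteins, expansins, xyloglucan and cellulose enzymes and sucrose synthases, 19 (73.1%) were lower, 3 higher and 4 did not pass (median -2.12), beside 20.4% lower and 35.3% higher among all tested probe sets. On 1 probe set per gene, the largest decreases were those of the sucrose synthase gene susC (-4.84, limma adjusted p = 6.77e-10) and of EXPA1, an expansin gene (-4.78, limma adjusted p = 4.62e-09). A probe set of FLA6 that was not the one read for that gene gave -4.86. The probe sets of susC and EXPA1 belong to the same sequence cluster, so these are not shown to be separate measurements. The largest increase was that of XTH3, a xyloglucan-modifying enzyme gene (2.45, limma adjusted p = 5.62e-08). SusA1, another sucrose synthase gene, came next (0.77, limma adjusted p = 0.00136). The other probe set of SusA1 gave 0.097 (limma adjusted p = 0.264) and did not pass. With the spike-in centring 19 of the 26 genes were lower, 2 higher and 5 did not pass. Among all tested probe sets 30.2% were then lower and 16.6% higher. Read over all 41 probe sets of the 26 genes as deposited, 29 were lower, 4 higher and 8 did not pass.

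Of 11 actin, tubulin and annexin genes, which build or bind the cytoskeleton of the elongating fibre, 8 (72.7%) were lower, 0 higher and 3 did not pass (median -0.59), beside 20.4% lower and 35.3% higher among all tested probe sets. The alpha-tubulin genes TubA4 (-2.29, limma adjusted p = 8.2e-08) and TubA2 (-2.20, limma adjusted p = 1.72e-08) had the largest decreases, which were smaller than that of E6. Other probe sets of TubA4, both of antisense design, were also lower, but by less (-1.43 and -1.11). The one with -1.11 carries the cluster number of a probe set of FSLTP2, a lipid transfer protein gene, so it is not shown to read TubA4 alone. With the spike-in centring 9 were lower and 2 did not pass, beside 30.2% lower among all tested probe sets. As deposited, the share lower among the 246 genes with an older name was 42.3%.

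Of 11 MYB, homeobox, bHLH and WD40 genes of families that control epidermal hairs, 5 (45.5%) were lower, 3 (27.3%) higher and 3 did not pass (median -0.10). Among all tested probe sets 20.4% were lower and 35.3% higher. The share lower in this list is close to the 42.3% of the 246 genes with an older name. With the spike-in centring 6 were lower, 3 higher and 2 did not pass, beside 30.2% lower and 16.6% higher among all tested probe sets. GHDEL61, a bHLH gene, fell by 5.19 log2 units (limma adjusted p = 1.54e-07) and GHMYB36, of the MYB family, fell by 4.07 (limma adjusted p = 5.04e-08), while MYB1 rose by 1.97 (limma adjusted p = 1.47e-07) and the gene named MYB by 1.46 (limma adjusted p = 3.78e-06). The other fibre-named genes came down to 1, FSLTP2, a lipid transfer protein gene. It fell by 0.65 (limma adjusted p = 4.47e-05) on 1 probe set, and its other probe set gave -0.20 (limma adjusted p = 0.067) and did not pass. The first of these carries the cluster number of a TubA4 probe set as well. Among all 246 genes with an older name, 104 (42.3%) were lower and 78 higher, with a median of -0.11.

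**Figure D4:**
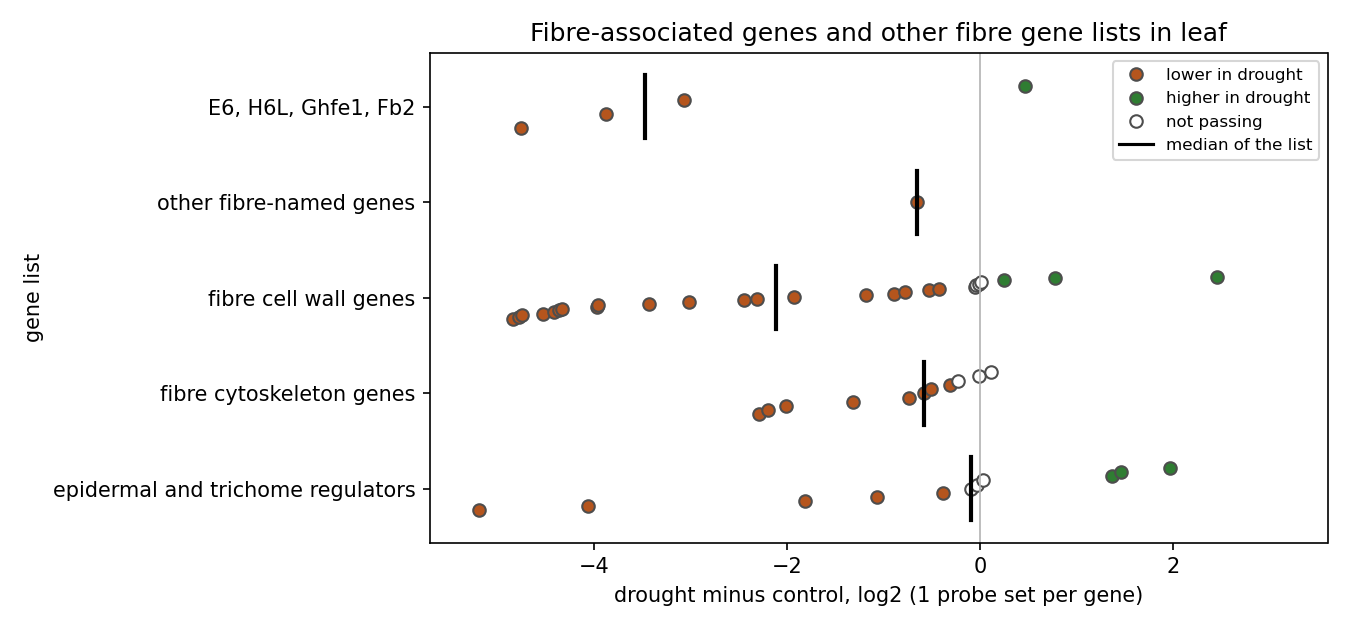
Drought minus control difference in log2 units (horizontal axis) of each gene, on 1 probe set per gene, for the 4 fibre-associated genes and 4 lists of other genes (rows); filled points passed an adjusted p of 0.05 and black bars are medians. H6L, Ghfe1 and E6 lie in the range of the lower cell wall genes, which extends to -4.84.

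The named genes most like each member were found by the root mean square (RMS) difference of the 6 centred values over 320 probe sets of other named genes. For H6L these were EXPA1 (RMS 0.12 log2 units), the xyloglucan-modifying enzyme gene XTH1 (0.15) and susC (0.16). XTH1 had this pattern on 1 of its probe sets, and its other probe set fell by 0.53. EXPA1 and susC were read on probe sets of the same sequence cluster, so they are not shown to be separate measurements. For Ghfe1 they were DFR, a dihydroflavonol reductase gene (0.06), the expansin gene EXPA11A (0.13) and bnlghi6863 (0.17). DFR had values of -1.81, -2.32 and -2.07 on drought arrays 1, 2 and 3, against 1.83, 1.87 and 1.81 on control arrays 1, 2 and 3. Drought array 1 was least and drought array 2 most negative for DFR, as they were for Ghfe1, EXPA11A and E6. DFR was picked as the closest to Ghfe1 on these same values, so nothing is drawn from this order.

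For E6 the nearest genes were FLA11, which encodes a fasciclin-like arabinogalactan protein (RMS 0.11), the peroxidase gene POX10 (0.11) and FatB1, an acyl-ACP thioesterase gene (0.14). Fb2 was nearest to the catalase gene CAT2 (RMS 0.07), SKD1 (0.08) and KAS2-1, a ketoacyl-ACP synthase gene (0.08), with differences of 0.44, 0.43 and 0.46 log2 units. These 3 genes passed as deposited, and with the spike-in centring they gave 0.19, 0.18 and 0.21 and, like Fb2, did not pass. The RMS difference was 0.46 between H6L and Ghfe1, 0.42 between Ghfe1 and E6, and 0.85 between H6L and E6. The nearest genes of these 3 members had smaller RMS differences, but they were the closest of the 320 probe sets searched. The comparison is therefore uneven, and nothing is drawn from it. RMS over 6 arrays mostly reflects the size of the group difference.

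Genes listed as markers of other tissues, which could be picked up with a leaf sample, were read beside these results. Of 5 flower MADS-box genes 0 were higher, 3 did not pass, and MADS-1 (-4.21, limma adjusted p = 3.03e-08) and SEPALLATA3 (-1.56, limma adjusted p = 1.22e-05) were lower in drought, also with the spike-in centring. Of 7 seed and maturation genes 2 were higher, Lea5-D (4.29) and Lea14-A (0.99), 0 were lower and 5 did not pass, and with the spike-in centring 2 were higher, 2 lower (MatP7 and vicB_At) and 3 did not pass. Over all tested probe sets 35.3% were higher and 20.4% lower as deposited. Under the spike-in scaling these background shares became 16.6% and 30.2%. The seed share of higher genes (28.6%) therefore lies below the background as deposited and above it under the other scaling. It rests on 2 of 7 genes, both with the Lea name, and no gene under the other seed names was higher. Whether Lea genes mark seed tissue in these samples was not tested. No enrichment or depletion is therefore read from the share. Because the values are centred, no summed level of either list can be given for a group. The part of tissue makeup in the decreases of H6L, Ghfe1 and E6 was not tested.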

How the data were processed

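The table holds log2 values that the authors made with RMA, per the submitters' processing notes; no RMA version is given in the sources used here. The log2 scale and the direction (higher for more signal) are read from RMA and the range of the values, and the table states neither. The deposited values are centred per probe set (largest absolute median 5e-07 over the 6 arrays), by a step that the sources used here do not describe. Of 24132 probe sets, 103 Affymetrix control probe sets were left out, and 24029 were tested. Those tested still held 52 reporter probe sets. In the platform's annotation 697 probe sets have 1 gene and 46 have several. RefSeq's table for Gossypium_hirsutum_v2.1, used for names alone, held all 697. They stand for 520 genes, of which 246 (324 probe sets) have an older name. No sequences or positions are printed, since no sequence table was used here and the array names no genome build.

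The difference drought minus control was fitted with limma 3.58.1 (lmFit, eBayes) under R 4.3.3 to all 6 arrays and no block. P-values were two-sided, with Benjamini-Hochberg adjustment across 24029 probe sets, and 0.05 was the threshold. All adjusted p-values and SEs are from limma. The fit was tested on simulated data. Differences between members were tested within arrays by exact permutation with scipy 1.17.1. With 3 arrays a group, their number limits the precision. The column medians over the tested probe sets were 0.08, 0.03 and 0.05 on drought arrays 1, 2 and 3, and -0.05, -0.05 and -0.04 on control arrays 1, 2 and 3.

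The members and lists were chosen with earlier results of these data known. Named are all member probe sets, FSLTP2, the 2 largest increases and the 2 largest decreases among the called genes of each list (1 probe set a gene: sense before antisense design, then suffix in the order _at, _a_at, _s_at, _x_at, then ID), the 3 genes nearest to each member, and tissue markers that were called. Alternatives were the omission of each array, the replicate block, other scalings, robust eBayes, array weights, adjustment with control probe sets, and every probe set of each gene.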

Additional observations from a re-analysis of the deposited data

Results flagged for a closer look

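Spike-in probe sets, which were kept out of the tests and measure no leaf transcript, gave higher signals on drought than on control arrays. The median of each array over 27 probe sets for hybridisation spike-ins was higher by 0.247 log2 units, and that over 42 poly-A spike-in probe sets by 0.224, with medians of 0.16, 0.08 and 0.13 on drought arrays 1, 2 and 3, against -0.12, -0.12 and -0.07 on control arrays 1, 2 and 3. In both classes the 3 drought arrays had higher medians than any of the 3 control arrays. The median over the 52 reporter probe sets, which stayed among those tested, was higher in drought by 0.056 only. The Fb2 difference was 0.47, and those of H6L, Ghfe1 and E6 were -4.75, -3.88 and -3.07. The part of the spike-in offset in the Fb2 difference was not tested beyond the scaling given in the report.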

How the results depend on the processing

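H6L, Ghfe1 and E6 passed as lower under all 13 alternatives run for each. H6L ranged from -5.00 to -3.79, Ghfe1 from -4.13 to -3.06 and E6 from -3.32 to -2.42. The smallest sizes came from quantile normalization. It was run on values already centred per probe set, so its sizes are not those of normalized array signals. With 1 array left out in turn, H6L ranged from -4.84 to -4.66, Ghfe1 from -4.004 to -3.79, E6 from -3.14 to -3.02 and Fb2 from 0.41 to 0.53. Fb2 passed under 12 of 13 alternatives, and after centring arrays on their hybridisation spike-ins it gave 0.22 (limma adjusted p = 0.179). With that centring 3989 probe sets in all were called higher, against 8485 as deposited. The probe set of the E6 cluster without a gene passed with array median centring (-0.24), quantile normalization (-0.27) and spike-in centring (-0.39), the settings that shift or reshape whole arrays. Over every probe set of each gene, 29 cell wall probe sets were lower and 8 did not pass, and 1 of the FSLTP2 probe sets did not pass, where more probe sets were counted. With a replicate block the Fb2 difference was 0.47 (limma adjusted p = 0.0016), and no call of the 4 genes changed. Same-numbered arrays of the groups are not shown to be paired: the correlation of their deviations from the group means was 0.03, 0.05 and 0.07, although each array correlated best with its own number. The mean over sense-design probe sets was not run, as each of the 4 genes has 1 probe set. Probe sets near background could not be left out, since centred values hold no level.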
